A study of Mus musculus with 12 samples.

Results

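The 10 genes followed here across 12 mouse livers mark hepatic stellate cells or encode the matrix around them: Reln, Lrat, Colec11, Pdgfrb, Des, Bgn, Dcn, Col1a1, Col1a2 and Col3a1. Each was read from the probe set that names it and no other gene, taking the probe set of highest mean over the 12 arrays where there was a choice. Each of the 10 had 1 such probe set. They are 10 of 30063 genes with a probe set of this kind and, since all of them passed the filter on low signal, 10 of the 19985 genes tested. The donors were C57BL/6J -Oca2p-un/J mice aged 3 months, in 3 groups of 4 with 2 males and 2 females each. The control group was given water. The cit-AgNP group received 20 nm silver particles coated with citrate and the PVP-AgNP group received 20 nm silver particles coated with polyvinylpyrrolidone (PVP), each by oral gavage once a day for 7 days at a silver dose of 4 mg/kg. Livers were taken 24 h after the last dose, and the total RNA of each was hybridised to 1 Affymetrix whole-transcript array.

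Hepatic stellate cells lie between hepatocytes and the sinusoidal endothelium. In the healthy liver they hold most of the body's vitamin A as retinyl esters, and they are best known as the main source of scar collagen after liver injury, when they lose their retinoid droplets and become contractile myofibroblasts. Lrat makes those esters, Reln and Colec11 encode secreted proteins of the resting cell, Pdgfrb encodes a growth factor receptor, Des an intermediate filament protein, and the remaining genes encode proteoglycans and fibrillar collagens of the matrix. In whole liver, fewer cells of a type and less RNA per cell cannot be told apart.

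Among the members in RefSeq's promoter table for GRCm38.p6, which held 7 of the 10, Reln, Bgn and Lrat had the lowest PVP-AgNP values relative to control, and the 250 bases before their starts are shown for that reason. Capitals mark the GC box (GGGCGG) and the CCAAT box (CCAAT) on either strand, so that GGGCGG on the opposite strand reads as CCGCCC. The Reln window is chr5:22344706-22344955 on the minus strand, the Bgn window chrX:73483351-73483600 on the plus strand and the Lrat window chr3:82903975-82904224 on the minus strand. Of the other members, Dcn lies on chromosome 10, Colec11 on 12, Col1a1 on 11, Col1a2 on 6, and Des and Col3a1 on 1.
Reln: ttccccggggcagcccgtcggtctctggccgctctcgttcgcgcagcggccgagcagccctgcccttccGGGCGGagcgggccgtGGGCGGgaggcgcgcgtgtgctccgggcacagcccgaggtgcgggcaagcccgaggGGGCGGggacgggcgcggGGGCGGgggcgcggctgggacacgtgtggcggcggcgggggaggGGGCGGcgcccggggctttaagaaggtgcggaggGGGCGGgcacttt
Bgn: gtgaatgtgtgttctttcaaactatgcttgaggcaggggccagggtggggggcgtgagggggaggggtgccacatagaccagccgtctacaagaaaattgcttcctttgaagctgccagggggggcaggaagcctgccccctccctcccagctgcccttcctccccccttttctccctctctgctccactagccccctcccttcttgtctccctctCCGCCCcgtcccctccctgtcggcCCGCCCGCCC
Lrat: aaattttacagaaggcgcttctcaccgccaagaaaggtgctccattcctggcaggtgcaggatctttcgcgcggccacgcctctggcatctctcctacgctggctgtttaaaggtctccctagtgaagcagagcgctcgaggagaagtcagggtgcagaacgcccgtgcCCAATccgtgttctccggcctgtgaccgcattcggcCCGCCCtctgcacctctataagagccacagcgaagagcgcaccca
The Reln window was 80.0% G or C with 37 CpG dinucleotides, against a median of 52.4% G or C over 32817 promoters, and it held 6 GC boxes. The Bgn window held 3 GC boxes, the 2 nearest the start overlapping each other, and the Lrat window held 1 GC box and 1 CCAAT box. A GC box occurred in 5 of the 7 members' windows and in 32.7% of all promoters of this length. Of the 7 windows 1 was below the median G or C of all promoters, and the motif shares were not adjusted for base composition. A CCAAT box occurred in 2 of 7 against 33.8%, and a TATA box (TATAAA) in 1 of 7, Col3a1, against 12.4%. The AP-1 letters TGANTCA were in 0 of 7 windows against 6.75% of all promoters, and the SMAD box letters GTCTG in 3 of 7 against 42.2%. These are matches of letters on both strands in a short window and describe no binding.

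Signals are log2 values, so a difference of 1 is a doubling, and levels are compared here only for 1 gene between livers. The array's intron control probe sets served as a measure of background. Bgn and Dcn lay above the 95th percentile of the 5222 intron controls on 12 of 12 arrays, Reln on 9, Lrat on 6 and Colec11 on 5. Pdgfrb, Col1a1, Col1a2, Col3a1 and Des were above it on 0 arrays. The mean signal of Des exceeded 53.4% of the intron controls, that of Col1a2 57.9% and that of Col1a1 60.3%, so differences in these 3 genes could be understated. All 6 hepatocyte markers were above it on 12 of 12 arrays, as the label of liver implies. The area under the ROC curve that separates exon from intron control probe sets, a measure of array quality, ranged from 0.804 to 0.842 in controls, from 0.814 to 0.827 with citrate and from 0.778 to 0.821 with PVP, with PVP-AgNP replicates 1 and 4 lowest at 0.778 and 0.794. With 4 arrays a group, their number limits how precise any value can be.

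Reln, which encodes a large secreted glycoprotein made in liver by stellate cells, had log2 signals of 8.79, 8.73, 9.06 and 9.11 in control replicates 1 to 4. In the cit-AgNP livers it read 8.81, 9.03, 8.53 and 8.35, and in the PVP-AgNP livers 7.87, 8.27, 8.20 and 8.04. All 4 PVP-AgNP livers lay below all 4 control livers and below all 4 cit-AgNP livers, whereas the cit-AgNP livers overlapped the controls. Lrat, the enzyme that esterifies retinol for storage, read 9.07, 8.02, 8.91 and 9.16 in controls, 7.68, 9.35, 8.53 and 7.94 with citrate, and 7.71, 8.54, 6.52 and 7.68 with PVP. Its groups overlapped: control replicate 2 was low for its group and cit-AgNP replicate 2 was the highest of the 12, while PVP-AgNP replicate 3 was more than 1 log2 unit below every other liver. Colec11, a collectin of the lectin complement pathway, read 7.96, 8.32, 8.47 and 8.55 in controls, 8.21, 8.13, 7.98 and 8.15 with citrate, and 8.27, 8.28, 7.64 and 8.02 with PVP. Control replicate 1 was the lowest control and lay within the range of the PVP-AgNP livers.

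Pdgfrb, the receptor for platelet-derived growth factor (PDGF) B chains that drives stellate cell growth, read 5.73, 6.11, 5.96 and 6.26 in controls. The cit-AgNP livers gave 5.77, 5.79, 5.76 and 5.76 and the PVP-AgNP livers 5.62, 5.63, 5.59 and 5.70. The PVP-AgNP livers were all below the other 8 livers, and the exposed livers spread less than the controls did, with SDs of 0.02 and 0.05 against 0.23. Des, the muscle-type intermediate filament protein desmin, read 4.79, 4.70, 4.84 and 5.34 in controls, 4.86, 4.90, 4.78 and 4.81 with citrate, and 4.90, 4.85, 4.72 and 5.03 with PVP. Its 3 groups overlapped, and control replicate 4 was the highest of the 12 livers.

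Bgn, the small leucine-rich proteoglycan biglycan, read 10.40, 10.89, 10.99 and 11.48 in controls, 10.66, 10.80, 10.21 and 10.40 with citrate, and 9.91, 10.44, 9.82 and 9.98 with PVP. With PVP 3 of 4 livers lay below the lowest control, and PVP-AgNP replicate 2 lay just above it. Dcn, the related proteoglycan decorin, which binds collagen fibrils and transforming growth factor beta (TGF-beta), read 12.06, 12.02, 12.23 and 12.95 in controls, 12.44, 12.35, 11.63 and 11.58 with citrate, and 11.82, 12.72, 11.34 and 11.59 with PVP. With PVP 3 of 4 livers were below the lowest control, and replicate 2 was above 3 of the 4 controls. The chains of type I collagen had overlapping groups. Col1a1 had means of 5.16 ± 0.11 in controls, 5.11 ± 0.13 with citrate and 5.11 ± 0.15 with PVP (mean ± SD, n = 4 each). Col1a2 had 5.08 ± 0.10, 5.02 ± 0.06 and 4.99 ± 0.11 in the same order. Col3a1, the chain of type III collagen, read 5.73, 6.17, 6.42 and 5.91 in controls, 5.70, 5.71, 6.20 and 5.84 with citrate, and 5.92, 5.59, 5.60 and 6.16 with PVP, with the groups overlapping throughout.

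**Figure D1:**
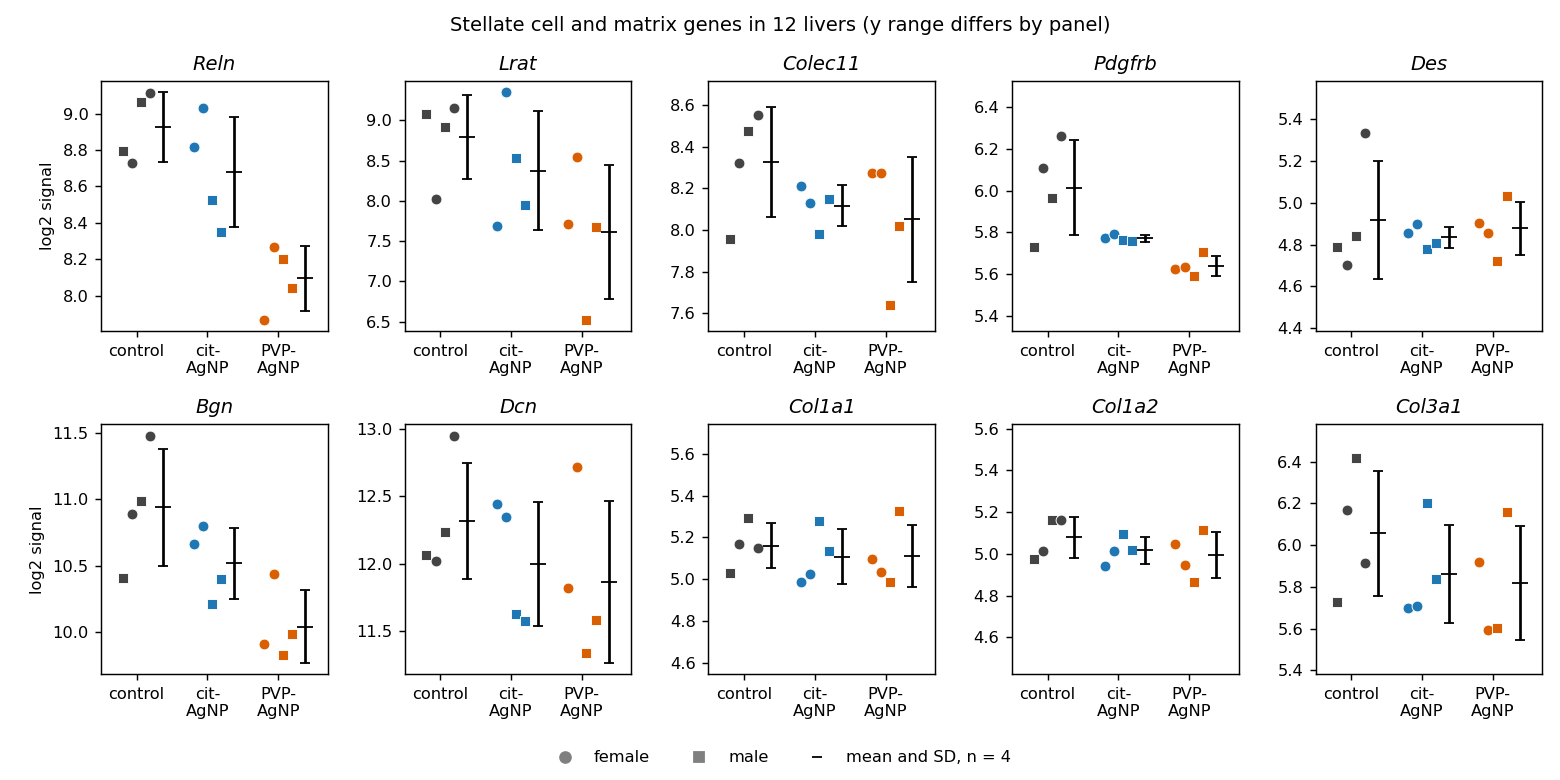
Log2 signal of each gene (y axis, its range differing by panel) in the control, cit-AgNP and PVP-AgNP livers (x axis), 1 point per mouse, circles for females and squares for males, with the group mean and SD (n = 4) in black. The PVP-AgNP points of Reln and Pdgfrb lie below all other points, and those of Col1a1, Col1a2 and Des overlap the other groups.

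Livers of PVP-AgNP mice were first set against livers of water-treated mice. This asks how the liver responded to silver particles with this coating, since no group was given a coating alone. Lrat had the largest difference among the 10 genes, a mean of 7.61 ± 0.83 with PVP against 8.79 ± 0.52 in controls, which is 2.26-fold lower. Bgn was 1.87-fold lower, 10.04 ± 0.27 against 10.94 ± 0.44, and Reln 1.78-fold lower, 8.09 ± 0.18 against 8.92 ± 0.19 (log2, mean ± SD, n = 4 each). Pdgfrb was 1.30-fold lower, 5.64 ± 0.05 against 6.02 ± 0.23. None of these passed the threshold, an adjusted p of 0.05 from limma over all genes tested, which 0.04% of the 19985 genes did.

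For Reln the log2 difference between PVP and control was -0.83 (SE 0.16, 95% interval -1.18 to -0.48, limma adjusted p = 0.071). That of Bgn was -0.90 (SE 0.18, interval -1.31 to -0.50, limma adjusted p = 0.0819), and that of Pdgfrb -0.38 (SE 0.09, interval -0.57 to -0.18, limma adjusted p = 0.104). Lrat had a wider interval, -2.19 to -0.16 around -1.18 (SE 0.46, limma adjusted p = 0.203), with its PVP-AgNP livers spread over 2 log2 units. Dcn differed by -0.45 (SE 0.24) and Colec11 by -0.27 (SE 0.14), with limma adjusted p-values of 0.304 and 0.29 and intervals that included 0. Col3a1, Col1a2, Col1a1 and Des had differences of -0.24, -0.09, -0.05 and -0.04, all with limma adjusted p-values of 0.439 or more.

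Of the 10 genes, 0 passed with limma, and 4 had an unadjusted p under 0.05 and a lower mean with PVP (Reln, Bgn, Pdgfrb and Lrat), against 12.2% of all genes tested. None (0 of 10) had one with a higher mean, against 8.05% of all genes. The PVP-AgNP livers all lay below the controls for 2 of the 10, Reln and Pdgfrb, against 4.92% of all genes. The mean was lower with PVP for 10 of 10 members against 50.5% of all genes, although Col1a1 and Des turned slightly above 0 with array weights, Des also with array quality in the fit, and both without PVP-AgNP replicate 3 (Des also without control replicate 4). The median difference of the 10 was -0.33, against -0.00 over all genes. The 10 genes and the lists below were chosen with earlier results of these data known, and the 10 correlate with each other. Counts set against all genes, here and below, are therefore descriptions and not tests of enrichment.

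Array quality moved with these values. Over the 12 arrays, which share the groups and the sexes, the area correlated with the signal of Reln (Pearson r = 0.79, Spearman rho = 0.77), Bgn (0.67 and 0.61), Dcn (0.60 and 0.70) and Lrat (0.55 and 0.69), and less with that of Pdgfrb (0.43 and 0.42). The rest had weak or negative values: Des (0.28 and 0.20), Colec11 (0.17 and 0.14), Col1a2 (-0.01 and -0.18), Col1a1 (-0.28 and -0.41) and Col3a1 (-0.29 and -0.44). With the area in the fit, the PVP minus control difference of Reln was -0.60 (limma adjusted p = 0.187) and that of Bgn -0.69 (limma adjusted p = 0.237). Pdgfrb was -0.37 and Lrat -0.87 in the same fit, while Dcn was -0.07 against -0.45. The differences of Col3a1 and Col1a1 were further from 0 than without the area, -0.48 against -0.24 and -0.13 against -0.05, with limma adjusted p-values of 0.348 and 0.705. Without the 2 arrays of lowest area, an alternative chosen after seeing the data that leaves 2 PVP-AgNP livers, the differences were -0.69 for Reln, -0.81 for Bgn, -0.40 for Pdgfrb and -1.26 for Lrat, with limma adjusted p-values of 0.34 to 0.561.

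**Figure D2:**
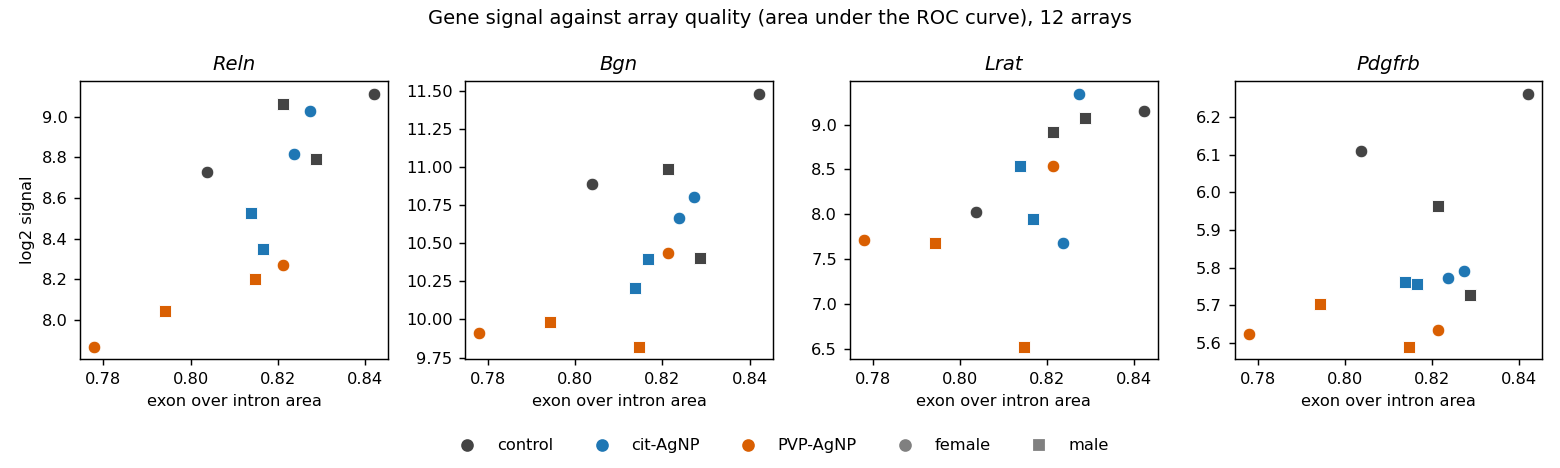
Log2 signal (y axis) of Reln, Bgn, Lrat and Pdgfrb against the area under the ROC curve that separates exon from intron controls (x axis), 1 point per array, coloured by group, circles for females and squares for males. PVP-AgNP replicates 1 and 4 have the lowest areas, 0.778 and 0.794, while PVP-AgNP replicates 2 and 3, at 0.821 and 0.815, have areas within the range of the controls and Reln signals of 8.27 and 8.20, below every control.

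The same question was put to silver particles with the citrate coating. Pdgfrb differed by -0.24 (SE 0.09, limma unadjusted p = 0.0195, adjusted p = 0.592) and Bgn by -0.42 (SE 0.18, limma unadjusted p = 0.0419, adjusted p = 0.733), which were 1.18-fold and 1.34-fold lower with citrate. Lrat differed by -0.42 (SE 0.46), Dcn by -0.32 (SE 0.24), Reln by -0.24 (SE 0.16) and Colec11 by -0.21 (SE 0.14), each with an interval that included 0. Of the 10 genes 0 passed with limma, against 0.005% of all genes tested. Pdgfrb and Bgn were the 2 with an unadjusted p under 0.05 and a lower mean, against 3.82% of all genes, and 0 of 10 had one with a higher mean, against 2.75%. For 0 of the 10 did the cit-AgNP livers all lie below the controls, which happened for 2.37% of all genes, and for 0 of 10 did they all lie above, against 1.93%. The mean was lower for 10 of 10, against 49.6% of all genes, with Des above 0 without control replicate 4, and the median difference was -0.23 against 0.00. Both comparisons with water use the same 4 control mice, so a difference of a control mouse enters both.

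The direct comparison of the coatings does not use the levels of the controls, but its SEs come from a spread pooled over all 3 groups. Reln was 1.50-fold lower with PVP than with citrate, a log2 difference of -0.58 (SE 0.16, 95% interval -0.94 to -0.23, limma unadjusted p = 0.00405, adjusted p = 0.25). Bgn differed by -0.48 (SE 0.18, interval -0.88 to -0.07, limma adjusted p = 0.326) and Lrat by -0.76 (SE 0.46, interval -1.78 to 0.25, limma adjusted p = 0.463). Pdgfrb differed by -0.13 (SE 0.09, interval -0.33 to 0.06, limma adjusted p = 0.507), although its PVP-AgNP livers all lay below its cit-AgNP livers. Its pooled spread includes that of the controls, an SD of 0.23 against 0.02 with citrate and 0.05 with PVP. With only these 2 groups in the fit the limma adjusted p of Pdgfrb was 0.349. The other 6 genes had differences between -0.13 and 0.04, with intervals that reached from -0.66 to 0.39 for Dcn and from -0.19 to 0.20 for Col1a1. Of the 10 genes 0 passed with limma, against 0.0% of all genes tested, and 2 of 10 (Reln and Bgn) had an unadjusted p under 0.05 with a lower mean, against 8.72%. With a higher mean there were 0 of 10, against 5.29%. The groups did not overlap for 2 (Reln and Pdgfrb), against 4.84%. The mean was lower with PVP for 8 of 10, against 50.2% of all genes, but the signs of Dcn, Col1a2, Col3a1 and Colec11 among these 8, and of Col1a1 and Des, turned under another setting or without a single liver. Quantile normalization turned those of Colec11, Col1a1 and Des.

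**Figure D3:**
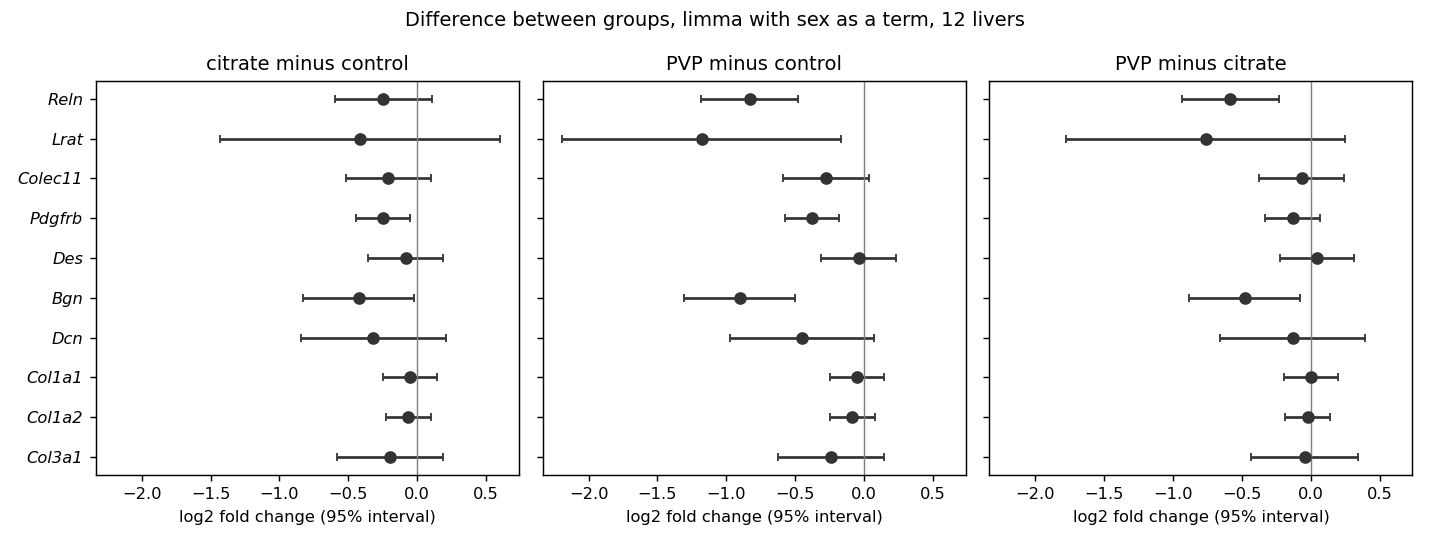
Log2 difference between groups (x axis) for each gene (y axis) in the 3 comparisons, as limma estimates with 95% intervals from 1 fit to the 12 livers with sex as a term. The intervals of Reln and Bgn for PVP minus control, -1.18 to -0.48 and -1.31 to -0.50, lie below 0, and those of Col1a1, Col1a2, Col3a1 and Des include 0 in all 3 panels.

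The order of the group means was control, then cit-AgNP, then PVP-AgNP for 8 of the 10 genes, and control, PVP-AgNP, cit-AgNP for Col1a1 and Des. For Reln the cit-AgNP and PVP-AgNP means were separated by more than the spread of either group and the control and cit-AgNP means were not. For Bgn the neighbouring means overlapped within their SDs on the control side, 10.94 ± 0.44 against 10.52 ± 0.27. For Pdgfrb both steps exceeded the SDs of the groups on either side, though the first only narrowly. For Lrat, Dcn, Col3a1, Colec11, Des and the type I collagen chains no neighbours in the order differed beyond their spread.

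Because males and females differ in liver expression, each exposed mouse was also set against the 2 controls of its own sex. Bgn was below them in 8 of 8 exposed mice, by log2 deviations of -0.30 to -1.28, and Pdgfrb in 8 of 8, by -0.08 to -0.56. Colec11 was below them in 8 of 8 as well. Reln was below in 7 of 8, with cit-AgNP replicate 2 at 0.11 and the PVP-AgNP mice at -0.65 to -1.05. Lrat was below in 7 of 8, from 0.76 in cit-AgNP replicate 2 to -2.47 in PVP-AgNP replicate 3, both single livers far from their group mates. Dcn was below in 7 of 8, with PVP-AgNP replicate 2 at 0.23. By mouse, 10, 8, 7 and 10 of the 10 genes were below in cit-AgNP replicates 1 to 4 and 10, 9, 10 and 6 in PVP-AgNP replicates 1 to 4. For these counts by gene and by mouse the share over all genes was not computed. They are not independent, since exposed mice of the same sex were set against the same 2 controls and the genes correlate. The median deviation of the 10 genes was lowest in PVP-AgNP replicate 3, a male, at -0.52, and in PVP-AgNP replicate 1, a female, at -0.36. It was -0.16 and -0.17 in PVP-AgNP replicates 2 and 4 and between -0.14 and -0.20 with citrate, so the medians of 2 of the 4 PVP-AgNP mice lay within the range of the cit-AgNP mice.

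**Figure D4:**
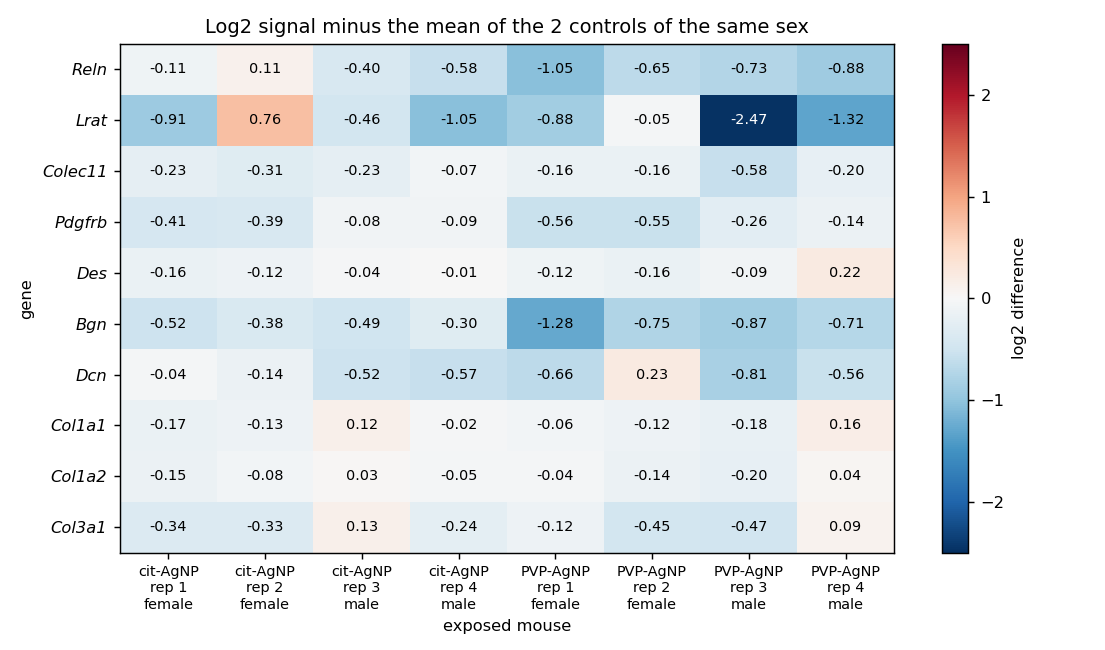
Log2 signal minus the mean of the 2 controls of the same sex, for each gene (rows) in each of the 8 exposed mice (columns), coloured from blue (lower) to red (higher) with the value printed in each cell. Bgn, Pdgfrb and Colec11 are below 0 in 8 of 8 mice, and the lowest cell is Lrat in PVP-AgNP replicate 3 at -2.47.

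The sexes were compared over 6 females and 6 males of all groups. Dcn, for which the difference had the smallest p, had a median log2 signal of 12.39 in females (11.82 to 12.95) and 11.61 in males (11.34 to 12.23), with the sexes overlapping. It was 1.56-fold higher in females, a log2 difference of 0.64 (SE 0.19, limma unadjusted p = 0.0073, adjusted p = 0.133). The call depended on the setting: the limma adjusted p was 0.0251 with array weights, 0.0334 with array quality in the fit and 0.0274 without control replicate 2, within a range of 0.0251 to 0.55 over 22 alternatives. Bgn, which lies on the X chromosome, differed by 0.40 (SE 0.15, limma adjusted p = 0.238) and Colec11 by 0.26 (SE 0.11, limma adjusted p = 0.316). Of the 10 genes 0 passed for sex with limma, against 2.18% of all genes, and 3 (Dcn, Bgn and Colec11) had an unadjusted p under 0.05 with a higher mean in females, against 6.36%. For 0 of 10 did all females lie above all males, against 0.906% of all genes.

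For silver particles of neither coating was the effect shown to differ between females and males for any of the 10 genes. With 2 mice per mean, 0 of 10 passed with limma for either coating, against 0.0% of all genes tested. At an unadjusted p under 0.05 there was 1 of 10 for PVP, against 1.91% of all genes in its direction, and 0 of 10 for citrate, against 1.57%. The 1 was Pdgfrb, with an effect in females minus males of -0.36 (limma unadjusted p = 0.0374, adjusted p = 1), with its highest signals in the 2 control females, 6.11 and 6.26. For Lrat the 95% interval of this difference ran from -0.61 to 3.48, so the data leave room for large differences between the sexes.

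The signals of the 10 genes were correlated pairwise across the 12 livers. Of their 45 pairs 42 had a Pearson r above 0, with a median of 0.48 and a range of -0.23 to 0.92. After the group and sex means were removed 38 of 45 were above 0, with a median of 0.41. For these counts the share over pairs of all genes was not computed. Bgn had high values with Pdgfrb (r = 0.89, rho = 0.90), Reln (r = 0.88, rho = 0.88) and Dcn (r = 0.78, rho = 0.78). So did the collagen chains with each other, Col1a1 with Col3a1 (r = 0.92, rho = 0.87) and with Col1a2 (r = 0.83, rho = 0.87). The 12 pairs of Reln, Bgn, Pdgfrb or Dcn with a collagen chain had a median r of 0.20, from -0.23 for Dcn with Col1a1 to 0.59 for Pdgfrb with Col1a2. After group and sex, Pdgfrb correlated with Col1a1 (r = 0.64), Bgn (r = 0.62) and Col1a2 (r = 0.61), and hardly with Reln (r = 0.08) or Dcn (r = 0.01). All of these are descriptions over 12 arrays that share groups, sexes and array quality, and the collagen chains lie at signals near the intron controls.

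The tested genes whose signals most resembled the mean of the 10 over the 12 arrays, each gene centred on its own mean, were Exoc1 (r = 0.94), Nono, Tjp1 and Nit1 (r = 0.92 each), Gab1, Dclre1a and Tada3 (r = 0.91 each) and Armh3 (r = 0.90). Their PVP minus control differences lay between -0.42 for Gab1 and -0.22 for Tada3, and none passed (limma adjusted p-values 0.117 to 0.171).

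The genes of the pathways around these markers were read in the same way. Retinoid handling had the lowest median of the 8 pathway lists with PVP. All 13 of 13 tested genes had a lower mean than in controls, with a median difference of -0.30 against -0.00 over all genes, and 6 of 13 had an unadjusted p under 0.05 with a lower mean, against 12.2% of all genes. Dhrs3, which reduces retinaldehyde to retinol, ranged from 10.34 to 10.47 in controls, from 9.69 to 10.22 with citrate and from 9.50 to 9.80 with PVP. With citrate 1 of the 13 genes had all exposed livers below the controls, against 2.37% of all genes. With PVP it was 2 of 13, against 4.92%. Both exposed groups of Dhrs3 lay below the controls, but Dhrs3 was named for its small p, so this is no separate evidence. Its PVP minus control difference of -0.78 (SE 0.13) had a limma adjusted p of 0.0577, which became 0.0437 with the filter at the 60th percentile and 0.0281 without the trend of spread on signal, within a range of 0.0281 to 0.307 over 24 alternatives. Its citrate minus control difference was -0.51 (SE 0.13, limma adjusted p = 0.366). Stra6l, related to the retinol transporter Stra6, differed by -0.58 with PVP (SE 0.12, limma adjusted p = 0.0906) with groups that overlapped. With citrate 10 of 13 retinoid genes had a lower mean, with a median of -0.25, against 49.6% of all genes below 0, and 3 of 13 had an unadjusted p under 0.05 with a lower mean, against 3.82%.

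Among the other matrix proteins 7 of 22 tested genes had an unadjusted p under 0.05 with a lower mean in the PVP-AgNP livers, against 12.2% of all genes, and 0 had one with a higher mean, against 8.05%. The median of the 22 was -0.02, with 13 of 22 below 0. Ogn, the leucine-rich proteoglycan osteoglycin, had 6.38 ± 0.45 in controls, 5.82 ± 0.22 with citrate and 5.42 ± 0.23 with PVP, with both exposed groups below the controls. Its PVP minus control difference was -0.97 (SE 0.21, limma adjusted p = 0.0952). In this list the cit-AgNP livers lay wholly below the controls for 2 of 22 genes, against 2.37% of all genes. The PVP-AgNP livers did so for 3 of 22, against 4.92%. Nid1, the basement membrane linker nidogen, differed by -0.60 (SE 0.12, limma adjusted p = 0.0749). Its PVP-AgNP livers lay below all its cit-AgNP livers, which happened for 3 of 22 genes of the list and for 4.84% of all genes. Ogn and Nid1 were named for their small p, so their lack of overlap is no separate evidence. Of the 24 genes of this list with a probe set, 20 were above the 95th percentile of intron controls on 0 arrays, Ogn and Nid1 among them. Those above it on 12 of 12 were Prelp, Sparc, Col14a1 and Fn1. Prelp had the lowest PVP minus control difference of the list, -1.12 (SE 0.25, limma adjusted p = 0.0967). The PVP-AgNP and control means were 9.63 and 10.19 for Sparc and 8.89 and 9.46 for Col14a1. Fn1 ran the other way, 17.41 and 17.02. With citrate 2 of 22 had an unadjusted p under 0.05 with a lower mean, against 3.82% of all genes, and the median was -0.08.

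Genes of stellate cell activation and of scar formation and breakdown were read next. Of 11 tested genes of activated and contractile cells 1 had an unadjusted p under 0.05 and a lower mean with PVP, against 12.2% of all genes, with a median of -0.13. Signals were low, and 0 of the 15 genes of that list with a probe set were above the 95th percentile of intron controls on any array. The lowest p was that of Mfap4, a microfibril protein, at -0.21 (SE 0.07, limma adjusted p = 0.185). Of 10 collagen maturation enzymes 0 had an unadjusted p under 0.05 in either comparison with water, with medians of 0.02 for PVP and -0.03 for citrate. Of 10 genes of matrix degradation and its inhibitors 1 was lower at that level with PVP, Timp2 at -0.31 (SE 0.13, limma adjusted p = 0.224), against the same 12.2%. In TGF-beta and PDGF signalling 1 of 14 was lower with PVP, the ligand gene Pdgfa at -0.24 (SE 0.07, limma adjusted p = 0.149), and the median was -0.02. These shares of the activation, degradation and signalling lists are no larger than that of all genes. With citrate 1 of 14 signalling genes had an unadjusted p under 0.05 with a lower mean and 1 of 14 with a higher mean. Smad3, which carries TGF-beta signals to the nucleus, differed by -0.34 with citrate (SE 0.12, limma adjusted p = 0.598), and was 0.39 higher with PVP than with citrate (limma adjusted p = 0.279). The ligand gene Tgfb3 differed by 0.20 with citrate (SE 0.09, limma adjusted p = 0.753).

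Further stellate cell genes outside the 10 were mostly near the intron controls, 11 of 15 above their 95th percentile on 0 arrays. In PVP-AgNP livers 2 of 15 had an unadjusted p under 0.05 with a lower mean, Vipr1, a receptor for vasoactive intestinal peptide, at -0.32 (SE 0.13, limma adjusted p = 0.21) and Nt5e, the ectonucleotidase CD73, at -0.65 (SE 0.27, limma adjusted p = 0.216). This count is near the share over all genes, 12.2%. The median of the 15 was -0.09, with 11 of 15 below 0. Steap4, a metalloreductase and the 1 gene of this list above that percentile on 12 of 12 arrays, ran the other way, with 13.42 ± 0.23 in controls, 14.01 ± 0.37 with citrate and 14.36 ± 1.32 with PVP. Its PVP minus control difference was 0.95 (SE 0.46, limma adjusted p = 0.276). With citrate the livers lay wholly above the controls for 2 of 15, Steap4 and Gfap, against 1.93% of all genes, and wholly below them for 0 of 15, against 2.37%. Gfap was at background level, 3.88 ± 0.04 in controls and 3.96 ± 0.04 with citrate, where the intron control medians ran from 4.63 to 4.88. Its citrate minus control difference was 0.08 (SE 0.09, limma adjusted p = 0.992). Among receptors and partners of the members, Vldlr, a receptor for the Reln protein, differed by -0.61 with PVP (SE 0.26, limma adjusted p = 0.227) and Masp2, a protease that acts with Colec11, by -0.29 (SE 0.13, limma adjusted p = 0.233), while the median of the 9 tested was -0.00. Mbl1, a lectin of the same complement pathway as Colec11, differed by 0.71 between PVP and control (SE 0.34, limma adjusted p = 0.264) and by 0.86 between PVP and citrate (SE 0.34, limma adjusted p = 0.331). Steap4, Gfap and the Mbl1 difference from control were taken up after their values were seen. In the treatment comparisons 0 genes of these 8 lists passed with limma.

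Marker lists of other liver cells were read beside the 10 genes. The mean log2 signal of 9 sinusoidal endothelial markers was 8.04 in controls (7.89 to 8.15), 8.12 with citrate (7.92 to 8.28) and 7.72 with PVP (7.52 to 8.01). With PVP 7 of the 9 had a lower mean, against 50.5% of all genes, and 3 of 9 an unadjusted p under 0.05 with a lower mean, against 12.2%. Their median was -0.31, whereas the median with citrate was 0.03. The mean of 9 Kupffer cell markers was 8.15 in controls, 8.54 with citrate and 8.61 with PVP. In both comparisons with water 9 of 9 were above 0, where 49.6% of all genes with citrate and 50.5% with PVP were below 0. An unadjusted p under 0.05 with a higher mean was found for 0 of 9 with citrate, against 2.75% of all genes. With PVP it was found for 1 of 9, against 8.05%. In deviation from the mean of the 12 arrays this list ran from -0.69 to 0.45 in controls, from -0.49 to 0.75 with citrate and from -0.56 to 1.57 with PVP, so the groups overlapped. The mean of 6 neutrophil and monocyte markers was 6.07 in controls (4.84 to 6.99), 6.58 with citrate (6.13 to 6.92) and 6.80 with PVP (6.20 to 8.25), with a median difference from control of 0.44 for citrate and 0.39 for PVP. With PVP 2 of 6 had an unadjusted p under 0.05 with a higher mean, against 8.05% of all genes. S100a8, a calcium-binding protein abundant in neutrophils, had 7.18 ± 1.75 in controls, 8.57 ± 0.40 with citrate and 9.28 ± 1.59 with PVP, with overlapping groups. With PVP 4 of the 6 markers had a higher mean than in controls and 2 of 6 a lower mean, against 50.5% of all genes lower. Ly6c2, of the same list, ran the other way, with means of 6.23, 5.83 and 5.80 in the same order. The 1 erythroid marker tested, Alas2, had 9.69, 9.55 and 9.36. The 6 hepatocyte markers had means of 18.53, 18.58 and 18.52 in the 3 groups. Alb, Apoa1, Ttr, Cps1 and Tat had means of 19.90 to 19.93 over the 12 arrays, at or near the table's ceiling of 19.93, and Hnf4a 11.65. A rise of the genes at the ceiling could hardly be seen, so the steady mean of this list does not measure the hepatocyte share. The part of endothelial, Kupffer, neutrophil and monocyte markers in the results of the 10 genes was not tested. Portal fibroblast, vascular smooth muscle, cholangiocyte, mesothelial and lymphocyte markers had 0 genes above the 95th percentile of intron controls on any array; the smooth muscle list shares Des with the 10 genes.

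**Figure D5:**
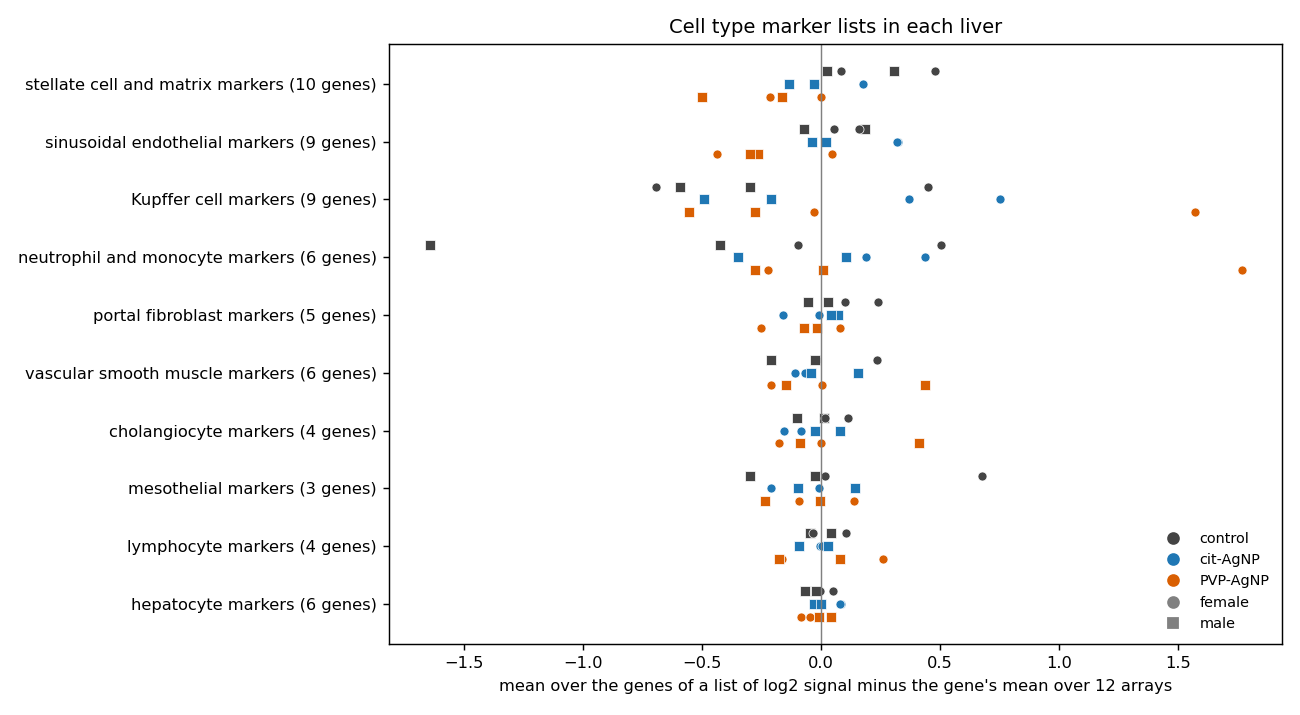
Mean over the genes of each marker list of the log2 signal minus the gene's mean over 12 arrays (x axis), by list (y axis), 1 point per liver, coloured by group, circles for females and squares for males. The 10 stellate cell and matrix genes range from 0.02 to 0.48 in controls, from -0.13 to 0.18 with citrate and from -0.50 to 0.00 with PVP, and the sinusoidal endothelial list from -0.44 to 0.05 with PVP against -0.07 to 0.19 in controls.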

How the data were processed

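Log2 signal values for 72688 probe sets were deposited by the authors, 1 column per mouse, with values from 1.73 to a ceiling of 19.93. The submitters' processing notes name RMA and Transcriptome Analysis Console 4.0.1.36, without role or order; the genome build and annotation behind the signals are not given in the sources used here. Per the labels each array is a separate mouse, and treatment and sex were taken from the labels.

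By the platform's annotation, 30604 probe sets name 1 gene symbol, 2146 several and 39938 none. Symbols of 1135 probe sets were updated with RefSeq (GRCm38.p6), which also gave gene chromosomes and promoter sequences. Of 30063 genes, 19985 were tested, those with a mean log2 signal over 3.93, the 40th percentile over the table. One limma fit (limma 3.58.1, R 4.3.3) with terms for the 3 groups and for sex, and a fit of group by sex, with the spread moderated along the signal, gave two-sided p-values; Benjamini-Hochberg adjustment ran over the 19985 genes and the threshold was 0.05. The script was tested on simulated data. Errors are SDs over mice or SEs of the fit.

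The 10 genes and the pathway and marker lists were chosen with earlier results of these data known. Named from each pathway list are the genes past the threshold or, where there are none, at most the 2 of smallest p in a comparison, and, over all tested genes, the 8 that correlate best with the members' mean. Alternatives covered the filter, the probe set rule, scaling, the trend, the sex term, array weights, array quality, the replicate number and leaving out each array. Leaving out the 2 arrays of lowest quality was added after seeing the data.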

Additional observations from a re-analysis of the deposited data

How the results depend on the processing

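With limma, 0 of the 10 genes passed in any comparison between treatments or between sexes in response under any alternative, and 1 of 10 (Dcn) passed for females against males with array weights, with array quality as a covariate and without control replicate 2, so that the count ran from 0 to 1 over the fits that leave out 1 mouse. The PVP minus control difference kept its direction under all 24 alternatives for Reln (-0.93 to -0.60, adjusted p 0.0548 to 0.341), Bgn (-1.03 to -0.69, 0.0605 to 0.34), Pdgfrb (-0.46 to -0.30, 0.078 to 0.36), Lrat (-1.52 to -0.83, 0.0918 to 0.62), Dcn, Colec11, Col3a1 and Col1a2. For PVP minus control, array weights gave 0.0071 for Col1a1 and 0.025 for Des, and array quality as a covariate 0.046 for Des. For PVP minus citrate, quantile normalization gave -0.042 for Col1a1, -0.025 for Des and 0.069 for Colec11; array quality as a covariate gave 0.18 for Dcn and -0.063 for Col1a1; leaving out the 2 arrays of lowest quality gave 0.030 for Dcn, -0.096 for Col1a1, -0.045 for Des and -0.0041 for Pcolce; and the mean of all probe sets gave 0.0027 for Serpinh1. For females minus males, centred array medians gave 0.00046 for Col1a2.

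Leaving out 1 mouse at a time turned the sign of small differences, whose ranges were, for citrate minus control, -0.18 to 0.056 for Des; for PVP minus control, -0.12 to 0.017 for Col1a1, -0.14 to 0.10 for Des; for PVP minus citrate, -0.33 to 0.0050 for Dcn, -0.058 to 0.070 for Col1a1, -0.065 to 0.028 for Col1a2, -0.14 to 0.066 for Col3a1, -0.031 to 0.084 for Des, -0.11 to 0.040 for Colec11; for female minus male, -0.051 to 0.011 for Col1a2. The median of the 10 genes ran from -0.26 to 0.10 for the citrate effect in females minus males and from -0.20 to 0.10 for the PVP effect, which was 0.069 without the 2 arrays of lowest quality. The cause of these turns was not tested.

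The residuals, after group and sex, gave no sign that replicate numbers of the labels pair mice. Same-numbered ones correlated at -0.44 to 0.23 (median -0.11, 2 of 12 above 0.1). Differently numbered ones had a median of 0.05 (13 of 36 above 0.1). Number 2 was female and number 3 male in all 3 groups, so number and sex overlap and the residuals test pairing only weakly. With the replicate block, Reln stayed at -0.83 for PVP minus control (limma adjusted p = 0.185) and Bgn at -0.90 (limma adjusted p = 0.179). For females minus males Lrat was -0.015 and Col1a2 0.060, while Lum, Stra6l, Vldlr and Col15a1 no longer passed for sex. In this fit the sex difference rests on replicate numbers 1 and 4 only. Over all genes 29 passed as higher and 27 as lower in females, against 186 and 249 in the main fit. The loss of calls is thus general to this fit. Of the 10 genes 0 passed in any comparison. Signals near the intron controls limit what Pdgfrb, Des and the collagen chains can show.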

Other observations

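Several genes of the same pathways differed between the sexes. Nt5e, the ectonucleotidase CD73, was 8.16 ± 0.68 in 6 females and 5.92 ± 0.15 in 6 males (log2, mean ± SD), a difference of 2.24 (SE 0.22, limma adjusted p = 0.000457), with the lowest female at 7.34 and the highest male at 6.10. Lum, a leucine-rich proteoglycan of the same family as Dcn and Bgn, was higher in females by 0.57 (SE 0.09, limma adjusted p = 0.00894), from 6.79 to 7.39 in females and from 6.34 to 6.49 in males. Stra6l was higher in females by 0.60 (SE 0.10, limma adjusted p = 0.014). For each of these 3 genes the 6 females lay above the 6 males, but they were named because they passed, so this is no separate evidence. By list this held for 1 of 15 other stellate cell genes, 3 of 22 other matrix genes and 1 of 13 retinoid genes. Over all genes tested it held for 0.906%. The call of Nt5e, Lum and Stra6l held when any 1 mouse was left out. Vldlr, by 1.05 (SE 0.21, limma adjusted p = 0.0322), and Col15a1, by 0.41 (SE 0.09, limma adjusted p = 0.035), also passed as higher in females. Vldlr no longer passed without control replicate 1 or 3, cit-AgNP replicate 1, 2, 3 or 4, or PVP-AgNP replicate 1 or 3, nor without the 2 arrays of lowest quality (limma adjusted p = 0.067). Col15a1 no longer passed without control replicate 1, 3 or 4, cit-AgNP replicate 1, 3 or 4, or PVP-AgNP replicate 3 or 4, nor with quantile normalization (limma adjusted p = 0.0631) or without the 2 arrays of lowest quality (limma adjusted p = 0.0705).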
